A study of Mus musculus with 12 samples.

Results

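The conjugation enzymes described here are the UDP-glucuronosyltransferases (Ugt), the cytosolic sulfotransferases (Sult) and the carboxylesterases (Ces) of mouse liver. They were chosen by gene symbol, through the RefSeq accession of each array probe. No measured value entered that rule, though earlier results of these data were known when it was set. Of 61 such genes in the RefSeq table, 49 had a probe on the array, namely 14 Ugt, 18 Sult and 17 Ces genes. For 34 of them (13 Ugt, 8 Sult and 13 Ces genes) a probe was well above background on all 12 arrays, and these 34 were compared among 16915 genes tested in all. Genes without a matched probe, the bilirubin form Ugt1a1 among them, were not analysed here.

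The study asked how liver gene expression changes when hepatocytes cannot make serine through phosphoglycerate dehydrogenase (Phgdh), the first enzyme of the pathway. Livers of 6 Floxed mice (Phgdh flox/flox, without Cre) and 6 LKO littermates (Phgdh flox/flox with Cre under the albumin promoter) were measured, all male, 30 weeks old, on a C57BL/6 background and fed a casein diet, with 1 mouse per single-color Agilent array. Both groups carry the floxed allele, and because the albumin promoter is active in hepatocytes, the other liver cells of LKO mice keep Phgdh. The arrays lay on 3 slides: Floxed 1 to 4 on slide 1, Floxed 5 and 6 with LKO 1 and 2 on slide 2, and LKO 3 to 6 on slide 3. Apart from the 4 arrays of slide 2, genotype and slide therefore cannot be told apart.

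Glucuronosyltransferases sit in the endoplasmic reticulum and join a sugar, usually glucuronic acid from UDP-glucuronate, to bilirubin, steroids, bile acids and drugs. Sulfotransferases are cytosolic and move a sulfate from the donor PAPS to phenols, catechols, steroids and bile acids. Carboxylesterases hydrolyze esters and amides, among them drugs and, for several members, the triacylglycerol of the hepatocyte. In rodents these are tandem gene families, so that members can be close in sequence. The Ugt1a genes come from a single locus with separate first exons and shared last exons. A probe may therefore read RNA of a close relative, and the values of near-identical members are uncertain in that respect.

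All levels below are log2 intensities after quantile normalization over the 12 arrays, and differences are LKO minus Floxed on that scale. Between 21614 and 24252 of 39429 probes per array were well above background, and no spot was saturated. Phgdh itself was 5.18 ± 0.23 in Floxed and 4.70 ± 0.41 in LKO mice (mean ± SD, n = 6 each), a difference of -0.48 (limma p = 0.0179, adjusted p = 0.451, two-sided exact permutation p = 0.0346). The groups overlapped, from 4.81 to 5.496 in Floxed and from 4.23 to 5.30 in LKO mice, the difference within slide 2 was -0.05, and with slide as a block the unadjusted limma p was 0.801. Scaled to the 75th percentile it was -0.34 (limma p = 0.0601, exact permutation p = 0.0909), and after normexp background correction -0.19 (limma p = 0.0194, exact permutation p = 0.0238). A second Phgdh probe, well above background in 1 Floxed and 3 LKO mice and therefore not kept, was 2.87 ± 0.29 in Floxed and 3.17 ± 0.53 in LKO mice. The kept probe itself read near the lower end of detection, at 4.23 to 5.496 over the 12 arrays. Which part of the transcript these probes read was not analysed here. For both reasons Phgdh checks the genotype labels only in part. The hepatocyte markers Alb, Apoa1, Ttr, Cps1, Cyp2e1 and Tat were all well above background in every mouse, and none differed at a limma p below 0.05. Ttr, 0.11 higher in LKO mice (limma p = 0.14), had an exact permutation p of 0.0433.

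The promoters of the 7 tested Ugt2b genes are shown first because these genes varied together between mice, as described further on, and that of Ugt3a1 because it was the Ugt gene that passed the test. Each line gives the 140 bases before the start of transcription in the RefSeq promoters of build GRCm38.p6, written 5′ to 3′ along the gene's own strand. Capitals mark GTTA and TTAAC separated by any 4 bases, a palindromic arrangement. The motif was searched on both strands over the 250 bases before the start and can overlap its own reverse match, as it does in Ugt3a1.
Ugt2b5 (chr5:87140341-87140480, minus strand): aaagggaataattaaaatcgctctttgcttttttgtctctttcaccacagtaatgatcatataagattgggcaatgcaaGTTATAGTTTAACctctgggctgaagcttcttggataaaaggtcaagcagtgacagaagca
Ugt2b37 (chr5:87254789-87254928, minus strand): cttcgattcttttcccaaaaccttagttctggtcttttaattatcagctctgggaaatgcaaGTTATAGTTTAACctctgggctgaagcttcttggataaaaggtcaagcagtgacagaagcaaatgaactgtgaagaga
Ugt2b38 (chr5:87424204-87424343, minus strand): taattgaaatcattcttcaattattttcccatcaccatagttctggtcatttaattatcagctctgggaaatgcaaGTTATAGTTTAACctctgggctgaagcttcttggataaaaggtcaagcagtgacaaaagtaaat
Ugt2b36 (chr5:87092556-87092695, minus strand): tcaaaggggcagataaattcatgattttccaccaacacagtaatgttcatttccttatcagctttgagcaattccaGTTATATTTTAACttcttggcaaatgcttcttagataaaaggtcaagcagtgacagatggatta
Ugt2b35 (chr5:87000720-87000859, plus strand): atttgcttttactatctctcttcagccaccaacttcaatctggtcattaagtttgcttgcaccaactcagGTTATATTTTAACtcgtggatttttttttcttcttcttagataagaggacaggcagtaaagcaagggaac
Ugt2b34 (chr5:86906938-86907077, minus strand): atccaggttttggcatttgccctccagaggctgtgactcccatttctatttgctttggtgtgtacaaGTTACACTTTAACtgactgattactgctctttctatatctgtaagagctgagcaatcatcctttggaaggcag
Ugt2b1 (chr5:86926504-86926643, minus strand): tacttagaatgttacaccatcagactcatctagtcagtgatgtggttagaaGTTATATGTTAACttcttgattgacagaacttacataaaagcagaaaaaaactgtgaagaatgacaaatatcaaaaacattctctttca
Ugt3a1 (chr15:9279689-9279828, plus strand): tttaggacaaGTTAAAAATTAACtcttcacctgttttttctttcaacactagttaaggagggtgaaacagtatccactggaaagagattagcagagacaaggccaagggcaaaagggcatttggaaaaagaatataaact

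All 7 Ugt2b promoters held the motif once, between 49 and 89 bases before the start, and Ugt3a1 held it 118 to 130 bases before its start. The motif was found in 56 of all 32851 promoters of that collection (0.17%). Of the 11 promoters found for tested Ugt genes 8 held it, and none of the 8 promoters of tested Sult genes or the 10 of tested Ces genes did. Promoters of Ugt1a6b, Ugt3a2, Ces1d, Ces1f, Ces2b, Ces3a, Sult2a7 and Sult4a1 were not analysed here. Ugt2b5, Ugt2b37 and Ugt2b38 also share an unbroken run of 62 identical bases that includes the motif. The motif was chosen after these sequences were seen, and a match is a description of the letters and not a binding site.

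Between genotypes, the 3 families differed little. One of 13 Ugt genes (Ugt3a1), 0 of 8 Sult genes and 1 of 13 Ces genes (Ces2e) passed the study's array criterion, an unadjusted limma p below 0.05, and both were higher in LKO mice. Over all tested genes 8.35% passed it in either direction and 4.92% as higher in LKO mice, and the 2 called members of 34 (5.88%) lay between these shares. No gene of the array passed after Benjamini-Hochberg adjustment in limma, and the lowest adjusted p among the members was 0.42. In no member did the 6 LKO values lie apart from the 6 Floxed values, as they did for 0.296% of all tested genes. The median difference was 0.01 for Ugt, 0.07 for Sult and 0.04 for Ces genes, beside -0.00347 for all tested genes.

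In the fit without slide, the intervals also bound the difference between the groups for most members, with any part of slide included in it. With slide as a block the standard error of every member was larger. It rose from 0.07 to 0.13 for Ces2c and from 0.18 to 0.33 for Ces1g, and the intervals under that block were not counted. Without slide in the fit, the whole 95% limma interval of the difference lay within 0.5 in either direction in 29 of the 34 members (85.3%). The same held in 70.1% of all tested genes. These were all 13 Ces genes, 11 Ugt genes and 5 Sult genes. The 5 others were Ugt1a10, Ugt1a6a, Sult2a7, Sult4a1 and Sult5a1, whose intervals reached beyond 0.5 on at least one side.

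**Figure D1:**
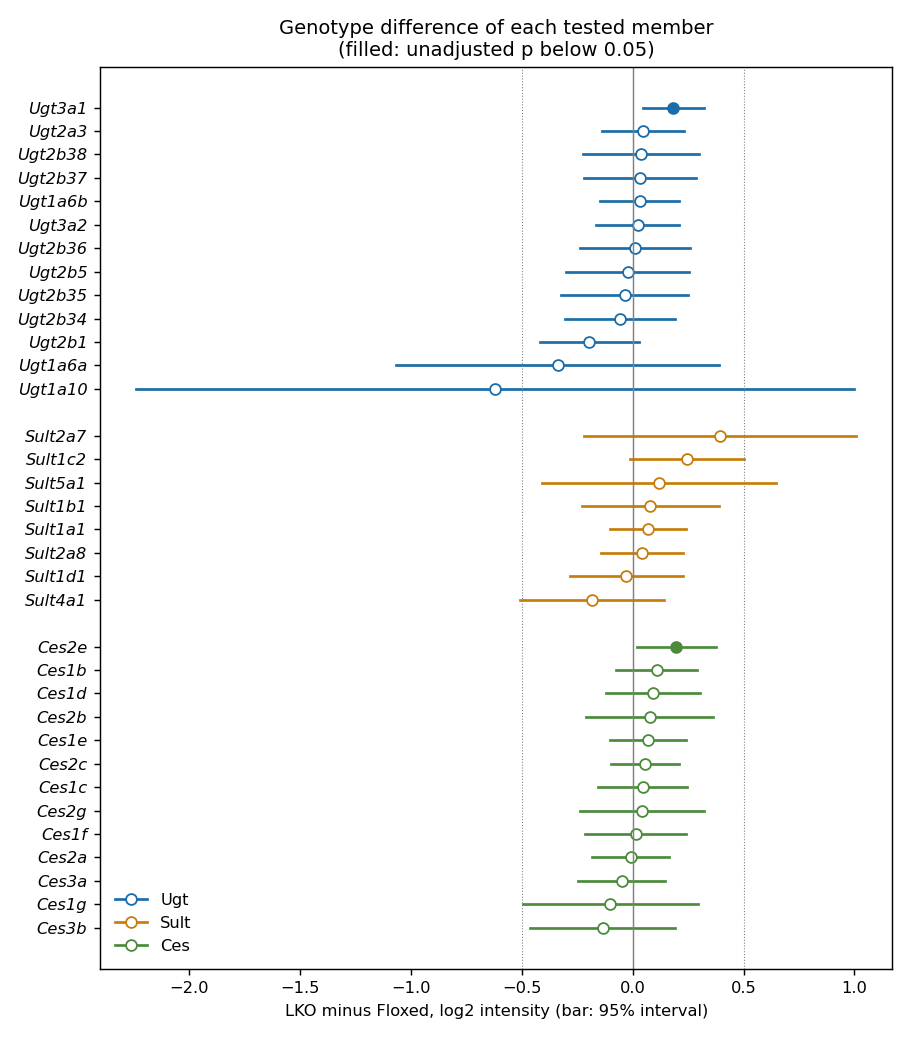
Difference between genotypes (LKO minus Floxed, log2 intensity, horizontal axis) of the 34 tested members, by family, with the 95% limma interval as a bar and dotted lines at 0.5 in either direction. Ugt3a1 and Ces2e (filled) are the 2 members with p below 0.05, and Ugt1a10 has the widest interval.

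Ugt3a1 belongs to a small branch of the family whose members use sugars other than glucuronic acid, human UGT3A1 using N-acetylglucosamine. Its levels ran from 12.12 over a median of 12.16 to 12.29 in Floxed mice and from 12.22 over 12.37 to 12.43 in LKO mice. The 5 LKO mice other than LKO 1 lay above every Floxed mouse, and LKO 1 lay below Floxed 5. The means were 12.18 ± 0.06 and 12.36 ± 0.08 (SD, n = 6 each), a difference of 0.18 or 1.14-fold with a 95% interval from 1.03 to 1.25 (limma p = 0.0137, adjusted p = 0.42, and two-sided exact permutation p = 0.00433). Within slide 2 the difference was 0.12, and with slide as a block the unadjusted limma p was 0.355. Ugt3a2, its neighbor in the family, was 14.08 ± 0.14 in Floxed and 14.10 ± 0.13 in LKO mice, and its difference of 0.02 had an interval from -0.17 to 0.21.

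Ces2e levels ran from 14.29 over a median of 14.41 to 14.50 in Floxed mice and from 14.38 over 14.59 to 14.83 in LKO mice. All LKO mice other than LKO 2 lay above every Floxed mouse. On slide 2, LKO 1 and LKO 2 lay at 14.51 and 14.38, beside 14.38 and 14.50 in Floxed 5 and 6. The difference was 0.20 or 1.15-fold, with a 95% interval from 1.01 to 1.3 (limma p = 0.0321, adjusted p = 0.533, and two-sided exact permutation p = 0.0195). Within slide 2 the difference was 0.01, and with slide as a block the unadjusted limma p was 0.962. A second Ces2e probe, dimmer but also kept, differed by 0.23 (two-sided exact permutation p = 0.139). Scaling to the 75th percentile also ended the call, at a difference of 0.20 (limma p = 0.101, exact permutation p = 0.108). The call was also lost without any 1 of Floxed 2, 3 or 5 or LKO 3, 4 or 5, where the unadjusted limma p lay between 0.0524 and 0.0718 and the exact permutation p between 0.0325 and 0.0455.

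**Figure D2:**
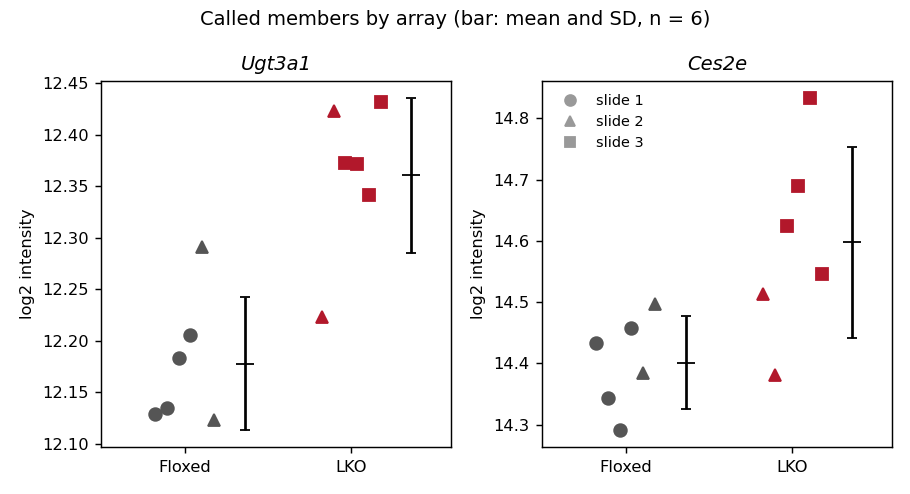
Log2 intensity (vertical axis) of Ugt3a1 and Ces2e in each mouse, with 1 point per array, the slide as the symbol, and the mean and SD of 6 mice as a bar beside the points. For Ces2e, LKO 2 of slide 2 lies among the Floxed mice, LKO 1 of slide 2 just above them and the 4 LKO mice of slide 3 above them.

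Among the glucuronosyltransferases of the Ugt2 branch, which act on steroids, bile acids and many drugs, none passed the test. Ugt2b1 came closest, with 12.24 to 12.50 (median 12.42) in Floxed and 11.84 to 12.49 (median 12.26) in LKO mice. Its difference was -0.20 with an interval from -0.42 to 0.03 (limma p = 0.0811, adjusted p = 0.692, two-sided exact permutation p = 0.0758), and -0.16 within slide 2. It passed the threshold, as lower in LKO mice, when arrays were scaled to their 75th percentile (limma p = 0.0422, exact permutation p = 0.013) and without LKO 6 (limma p = 0.0261, exact permutation p = 0.0152). Ugt2b5, a major form of mouse liver, was 14.45 ± 0.25 in Floxed and 14.42 ± 0.21 in LKO mice, and its interval ran from -0.30 to 0.25. Ugt2a3 was 13.65 ± 0.14 in Floxed and 13.70 ± 0.12 in LKO mice. The other Ugt2b genes, Ugt2b34 to Ugt2b38, had differences between -0.06 and 0.04.

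What the Ugt2b genes did show was a shared variation from mouse to mouse, in both genotypes. Ugt2b5 was lowest in Floxed 1 (14.14) and highest in Floxed 5 (14.79) among Floxed mice, and lowest in LKO 3 (14.04) and highest in LKO 1 (14.64) among LKO mice. Of the 7 tested Ugt2b genes, LKO 3 was the lowest LKO mouse for 6 and LKO 1 the highest for 6, while Floxed 5 was the highest Floxed mouse for 5 and Floxed 1 the lowest for 4. The range over the 12 mice was 0.75 for Ugt2b5, beside a difference of -0.02 between the genotypes.

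**Figure D3:**
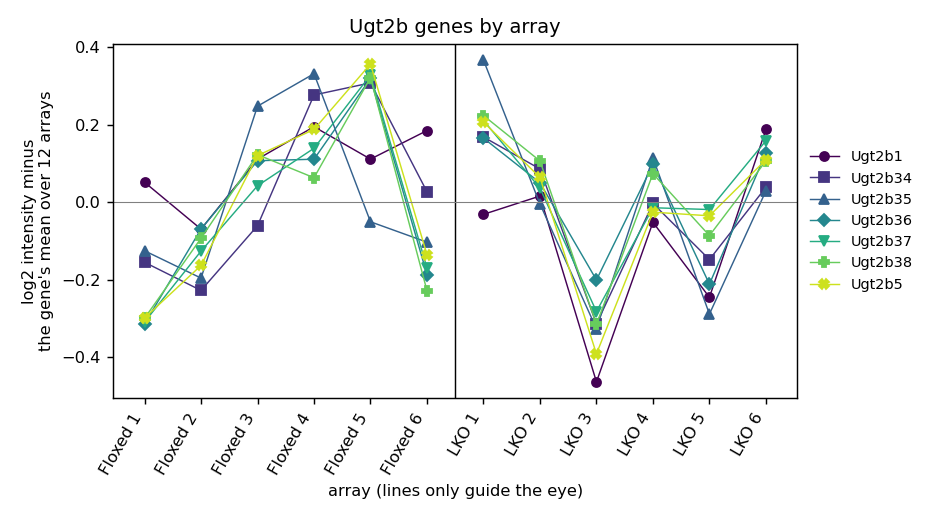
Deviation of each of the 7 tested Ugt2b genes from its own mean over the 12 arrays (log2 intensity, vertical axis) in every mouse, with 1 line per gene. Ugt2b5, Ugt2b36, Ugt2b37 and Ugt2b38 lie nearly on top of each other in most mice, and 6 of the 7 genes have their lowest LKO value in LKO 3.

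Over the 12 mice, Pearson's r between pairs of the 7 genes ran from 0.43 to 0.98 and Spearman's rho from 0.33 to 0.97. Of 21 pairs, 16 passed a permutation test of r after Benjamini-Hochberg adjustment over the 21. How many other gene pairs of the array would pass was not counted, so the 16 pairs are not set against the array. The tightest pair was Ugt2b5 and Ugt2b37, with r = 0.977 and rho = 0.965 (permutation p = 1e-05 each, the smallest that 100000 resamples can give). Among Ugt2b5, Ugt2b36, Ugt2b37 and Ugt2b38 all 6 values of r were between 0.896 and 0.977. Without the 2 mice farthest from the median of the first gene they were between 0.905 and 0.978, and after the slide means were removed between 0.886 and 0.986. Slides of 4 arrays are too small for a value within each. Ugt2b34 followed the same 4 genes with r between 0.769 and 0.878, and Ugt2b35 with r between 0.607 and 0.674.

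Ugt2b1 stood farthest from the others. Its r with Ugt2b38 was 0.431 (permutation p = 0.162) and its rho 0.326 (permutation p = 0.298), and without the 2 mice farthest from its median r was -0.04, so that relation rests on those 2 mice. Its r with Ugt2b5 was 0.57 (permutation p = 0.0522). Of 16891 other genes compared over the 12 mice, Ugt2b37 and Ugt2b38 were the most like Ugt2b5, Ugt2b36 ranked 7 and Ugt2b34 ranked 16, while Ugt2b35 ranked 644 and Ugt2b1 1452. Genes of other families ranked in between, among them Etaa1 (r = 0.901) and Spop (r = 0.899). Whether the probes of Ugt2b5, Ugt2b36, Ugt2b37 and Ugt2b38 read each other's RNA was not tested. The 75th percentile of the array's intensity was 283 in Floxed 1 and 410 in Floxed 5, and 341 in LKO 3 and 388 in LKO 1. Its lowest and highest values were 239 in LKO 5 and 473 in Floxed 4, and it was 427 in both Floxed 6 and LKO 4. The mean deviation of the 7 Ugt2b genes was -0.15 in LKO 5, 0.19 in Floxed 4, -0.09 in Floxed 6 and 0.03 in LKO 4. The part of array intensity in the shared variation was not tested.

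In the Ugt1a locus, Ugt1a10 divided the mice across genotypes. Its kept probe read 9.79, 9.72 and 9.47 in Floxed 3, 5 and 6 and 9.11 in LKO 5. The other 8 mice lay between 5.91 and 7.41, which left a gap of 1.71 between the lowest of the 4 and the highest of the 8. A second, dimmer Ugt1a10 probe, well above background on 8 arrays and therefore not kept, was highest in the same 4 mice, at 4.80, 4.74, 4.64 and 4.08. Among 16894 genes with a value on every array, 11 had the same 4 highest mice, and the next largest gap among those was 0.097. Gaps after any other set of 4 mice were not counted, so the 11 do not show how rare such a gap is. The range of 3.88 over the 12 mice was matched or exceeded by 43 genes, Ugt1a10 included.

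Because the mice fell into separate clusters that cut across genotype, the group means of Ugt1a10, 7.99 ± 1.89 in Floxed and 7.37 ± 0.88 in LKO mice, describe neither cluster. Their difference was -0.62 with a limma interval from -2.24 to 0.997 (two-sided exact permutation p = 0.491). On slide 2 both Floxed mice belonged to the higher cluster and both LKO mice to the lower one, which gave a difference of -2.70 and, with slide as a block, an unadjusted limma p of 0.031 (adjusted p = 1). The higher cluster also held a mouse of slide 1 and a mouse of slide 3. Each slide thus had mice of both clusters. The probes assigned to Ugt1a6a and Ugt1a6b, neighbors that share the last exons, did not divide the mice in this way. The human counterpart of Ugt1a6b, UGT1A6, conjugates simple phenols. The brighter Ugt1a6b probe was 16.15 ± 0.14 in Floxed and 16.18 ± 0.09 in LKO mice. Its second probe read far lower, from 7.95 in LKO 5 to 8.95 in LKO 4. Which Ugt1a RNA each of these probes reads was not tested. With a difference of -0.0027, the dimmer one was the only kept second probe of a member with the opposite sign. Ugt1a6a, near the lower end of detection at 4.01 to 6.07, differed by -0.34 with an interval from -1.07 to 0.39 (exact permutation p = 0.383). Without LKO 1, the highest LKO mouse, it passed as lower in LKO mice, at -0.63 (limma p = 0.0232, adjusted p = 0.327, exact permutation p = 0.0433), and within slide 2 the difference was -0.12.

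**Figure D4:**
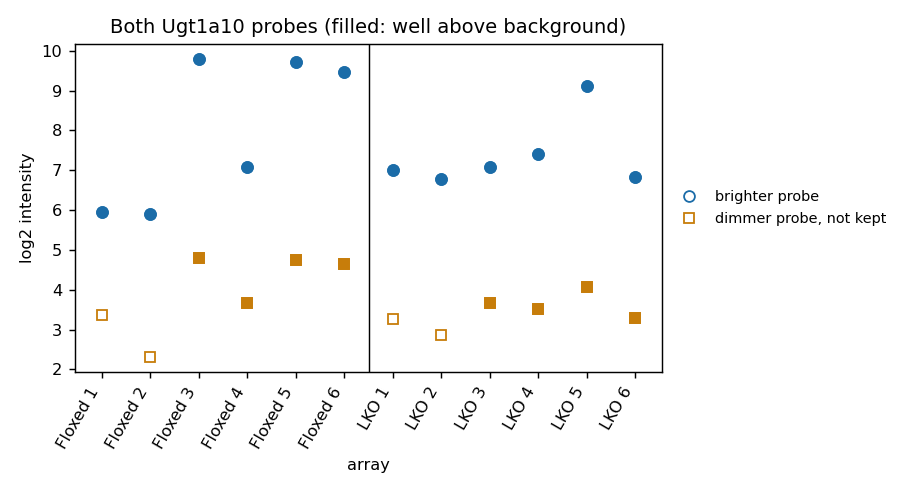
Log2 intensity (vertical axis) of the 2 Ugt1a10 probes in each of the 12 mice, with filled symbols where the spot was well above background. Floxed 3, 5 and 6 and LKO 5 are the 4 highest mice for both probes, at 9.11 or more for the brighter one.

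No sulfotransferase passed limma's threshold, and the methods' t-test also gave 0 of 8. Sult1c2 came closest. Floxed 1 to 5 read between 8.64 and 8.87 and the LKO mice between 8.97 and 9.33, but Floxed 6 read 9.37, above every LKO mouse. With all mice the difference was 0.24 (interval -0.01 to 0.50, limma p = 0.0607, two-sided exact permutation p = 0.0801), and within slide 2, the slide of Floxed 6, it was -0.03. Without Floxed 6 it was 0.35 (limma p = 0.00151, adjusted p = 0.346, exact permutation p = 0.00216), so a single mouse set the side of the threshold. With slide as a random block over all 12 mice the unadjusted limma p was 0.0305.

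Sult2a7, of the hydroxysteroid branch, had the largest difference of its family, 0.40, with levels of 8.34 to 9.44 (median 8.90) in Floxed and 8.24 to 9.85 (median 9.58) in LKO mice. LKO 1, 3, 4 and 5 lay above every Floxed mouse, LKO 6 among the Floxed mice and LKO 2 below all of them. The groups thus overlapped in range (limma p = 0.187, two-sided exact permutation p = 0.225). Without LKO 2, the lowest mouse, the difference was 0.61 (limma p = 0.0238, exact permutation p = 0.0519). Within slide 2 it was -0.04, and with slide as a block the unadjusted limma p was 0.942. Sult2a8, of the same branch and named after its values were seen, was 14.99 ± 0.14 in Floxed and 15.03 ± 0.13 in LKO mice (difference 0.04, interval -0.14 to 0.23). The phenol form Sult1a1 was 14.42 ± 0.12 in Floxed and 14.49 ± 0.11 in LKO mice (interval -0.10 to 0.24). Sult1b1, known for thyroid hormone and catechols, was 11.23 ± 0.31 and 11.31 ± 0.21, and Sult1d1 was 9.98 ± 0.19 and 9.95 ± 0.22, in the same order. Sult5a1 differed by 0.12 (interval -0.41 to 0.64), and Sult4a1, best known from brain, had the lowest difference of the family at -0.18 (interval -0.51 to 0.14).

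The other 10 Sult genes with a probe were not tested. Sult2a1, Sult2a2, Sult2a3, Sult2a4, Sult2a6 and Sult1c1 were well above background on 0 of 12 arrays. Sult2a enzymes sulfate bile acids and hydroxysteroids, and Sult2a1 and its close relatives are known to be higher in female than in male mouse liver, while Sult2a7 and Sult2a8 were well above background in all 12 of these males. Sult1e1, the estrogen sulfotransferase, was well above background in 1 mouse of each genotype, Sult2b1 in 2 LKO mice, and Sult3a1 and Sult3a2 in 1 LKO mouse each. Without the filter on dim probes Sult2b1 was called as higher in LKO mice, and the exact permutation p was below 0.05 for Sult1c1, Sult2a1 and Sult2b1, at values mostly not well above background.

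Averaged over the 13 tested carboxylesterases, the deviation from each gene's own mean lay between -0.09 in LKO 5 and 0.11 in LKO 3. This average includes genes that moved in opposite directions in 1 mouse, and single genes ranged more widely over the 12 mice, by 1.01 for Ces3b, 0.896 for Ces1g and 0.832 for Ces2g. Ces1d, a triacylglycerol hydrolase that takes part in the assembly of very low density lipoprotein, was 14.87 ± 0.16 in Floxed and 14.97 ± 0.16 in LKO mice, a difference of 0.09 with an interval from -0.12 to 0.30. Ces1g, also known for a role in liver lipid export, varied more, from 11.09 to 11.98 in Floxed and from 11.23 to 11.97 in LKO mice, with a difference of -0.10 and an interval from -0.50 to 0.29. Ces1c, an esterase that rodents secrete into plasma, was 15.53 ± 0.15 and 15.57 ± 0.14, and Ces1f 14.85 ± 0.15 and 14.86 ± 0.20, in Floxed and LKO mice.

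Ces2a differed by -0.01 (interval -0.18 to 0.16), and all 3 kept probes of Ces2c, known as a diacylglycerol hydrolase, differed by 0.06 to 0.11 with none called. Ces3a, at 16.91 ± 0.12 in Floxed and 16.86 ± 0.17 in LKO mice, differed by -0.05. Ces3b had the lowest difference of the family, -0.13, with an interval from -0.46 to 0.19. Of the 4 Ces genes that were not tested, Ces4a was well above background in 6 Floxed and 5 LKO mice and Ces1a in 6 and 4, while Ces5a was in 2 LKO mice and Ces2f in none.

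**Figure D5:**
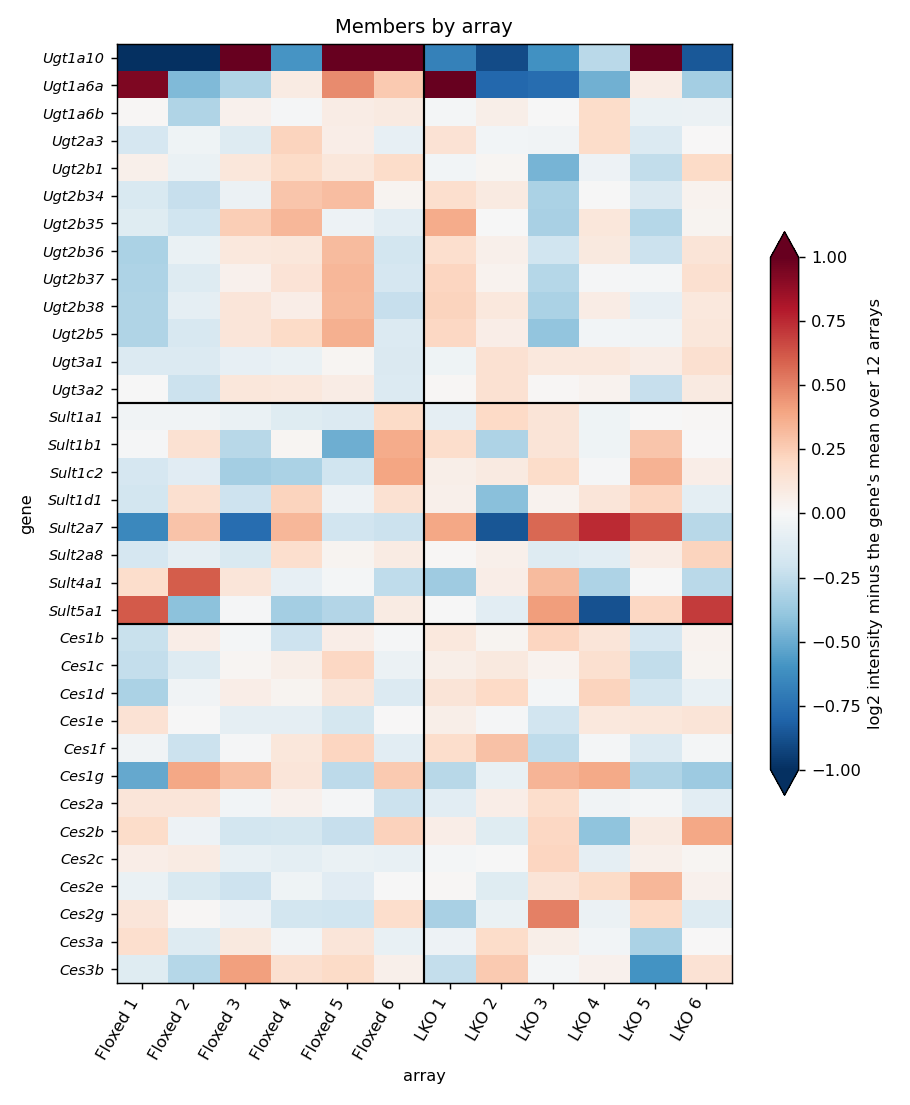
Deviation of each of the 34 tested members (rows, by family) from its own mean over the 12 arrays (columns), in log2 intensity, with the color scale ending at 1 in either direction. Most rows stay pale, the Ugt1a10 row divides the mice across genotypes, and 6 of the 7 Ugt2b rows have their lowest LKO value in LKO 3.

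The genes that supply, control and export conjugates were given as lists from general knowledge. Of 46 tested genes in 7 such lists, 1 was called as higher and 0 as lower, beside 8.35% over the array. It was Abcc4, a transporter that moves glucuronides, sulfates and bile acids out of the hepatocyte into the blood. Its levels ran from 6.22 to 6.65 in Floxed and from 6.47 to 7.41 in LKO mice, and the difference was 0.40 (SE 0.15, limma p = 0.0166, adjusted p = 0.438, two-sided exact permutation p = 0.0238). Within slide 2 it was 0.25, and with slide as a block the unadjusted limma p was 0.374. With that block the list gene called was Nnmt, a methyltransferase of nicotinamide, as lower in LKO mice, at -0.58 within slide 2 (unadjusted limma p was 0.0403) and -0.23 over all mice.

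The list for UDP-glucuronate supply, with Ugp2, Ugdh and the nucleotide-sugar transporters Slc35d1 and Slc35a3, gave 0 calls in 4. Its differences ran from -0.09 to 0.15. The list for PAPS supply, which also holds the phosphatases Bpnt1 and Bpnt2, gave 0 calls in 6, with differences from -0.13 to 0.15. The receptors and hepatocyte factors gave 0 calls in 10. Enzymes that remove conjugates (3 tested), other esterases and lipid hydrolases (11 tested) and other conjugating enzymes (8 tested) gave 0 calls each over all mice.

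Since many Ugt, Sult and Ces genes are known to depend on sex in mouse liver, both lists of sex-dependent genes were read beside them. Of 10 tested male-predominant genes 1 was called, beside 8.35% over the array. It was Cyp2d9, which was 13.88 ± 0.20 in Floxed and 13.57 ± 0.28 in LKO mice, a difference of -0.31 (limma p = 0.0395, two-sided exact permutation p = 0.0584). Within slide 2 it was -0.29, and with slide as a block the unadjusted limma p was 0.271. Hsd3b5, the list's widest difference at -1.13, did not pass (limma p = 0.0616, exact permutation p = 0.0996). Cyp7b1 (-0.42), C6 (-0.29) and Slco1a1 (-0.25) also had negative differences without passing. Serpina1e (-0.03) and Mup20 (0.01) differed least, and the median of the list was -0.14. Elovl3 (0.32), Cyp4a12a (0.19) and Cyp4a12b (0.14) of the same list had positive differences and did not pass either, and for Elovl3 the difference within slide 2 was 1.22, with an unadjusted limma p of 0.00284 under the slide block. None of 5 tested female-predominant genes was called.

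Of 23 tested markers of other cells, 3 were called, all higher in LKO mice, beside 8.35% of the array called in either direction and 4.92% as higher. Pecam1 of 4 tested endothelial markers differed by 0.70 (exact permutation p = 0.00866) and by 0.04 within slide 2, where the slide block gave an unadjusted limma p of 0.808. Fabp2, the only tested one of 5 enterocyte markers, differed by 0.47 (exact permutation p = 0.0498), and Cel of 2 tested acinar markers by 0.54 (exact permutation p = 0.00649). Within slide 2 Fabp2 differed by 0.29 and Cel by 0.27, and with slide as a block their unadjusted limma p was 0.407 and 0.218. Vil1, Lct, Sis and Alpi, the other enterocyte markers, were not well above background on all arrays, and the liver itself can express Fabp2 and Cel. The mean deviation of the endothelial markers ran from -0.30 to 0.12 in Floxed and from -0.24 to 0.50 in LKO mice. No Kupffer cell, stellate cell, cholangiocyte, lymphocyte, kidney or adipocyte marker was called. The part of these markers in the values of Ugt3a1 and Ces2e was not tested. In liver RNA of this kind, fewer cells of a type and less RNA per cell cannot be told apart.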

How the data were processed

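Liver RNA of 6 Floxed and 6 LKO mice was hybridized to 12 single-color Agilent arrays. The authors deposited the scanner's processed intensity of every spot, background-corrected but without scaling across arrays, and their own table, in which intensity had been quantile-normalized. The submitters' processing notes name Agilent Feature Extraction 9.5.1.1, while the file headers give 10.7.1.1. Precision is limited by the number of arrays.

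Control spots (1377) were left out. Processed intensity was taken to log2 and quantiles were equalized over the arrays, outlier spots were set to missing, and spots of one of 39429 probes were averaged. No tested member had an outlier spot or a missing value. The study's detection p-value was not used here, and in its place a probe had to be marked well above background by the scanner software in all 12 mice, as 20404 were. Of 28389 probes with a RefSeq accession 94.3% matched a symbol in the RefSeq table (GRCm38.p6), and other probes kept the array's identifier, so that 12529 of the 16915 features counted as genes carry a symbol. The array was designed on another build, so no probe coordinates are given. The brightest kept probe represented a gene.

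LKO was compared with Floxed in limma 3.58.1 (R 4.3.3; lmFit, eBayes, no covariate) at an unadjusted p below 0.05, with Benjamini-Hochberg values over all tested genes, and single members by exact permutation of 6 against 6 (924 arrangements, two-sided, smallest possible p 0.00216). Relations between Ugt2b genes used 100000 permutations. The code was tested on simulated data. Alternatives covered scaling, background correction, the authors' table, filters, probe choice, thresholds, the methods' t-test, slide, replicate number and each array left out.

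Named with values are members that were called, that had the largest difference of a family in each direction, that are main liver forms, or whose probes differed in sign, and called genes of the lists. The members, lists and tests were chosen with earlier results of these data known. The relations between Ugt2b genes, the promoter motif, the clusters of Ugt1a10 and the genes most like Ugt2b5 were chosen after the values were seen.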

Additional observations from a re-analysis of the deposited data

Results flagged for a closer look

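Within groups of 6 mice, the highest or lowest mouse of a group was set against the other 5 by the ratio of its gap to the whole range, with Dixon's 95% critical value for 6 values. Of 70 groups (34 members and Phgdh in both genotypes) 6 exceeded it, where chance gives about 3.5. LKO 5 was the mouse in 3 of them. It was the highest LKO mouse for Ugt1a10, at 9.11 beside 6.78 to 7.41 (ratio 0.732), and the lowest for Ces1c, at 15.30 beside 15.58 to 15.72 (ratio 0.665), and for Ugt3a2, at 13.86 beside 14.10 to 14.24 (ratio 0.639). Its array had the lowest 75th percentile of intensity of the 12, at 239, and the part of this in the 3 values was not tested. Floxed 6 was the highest Floxed mouse for Sult1c2, at 9.37 beside 8.64 to 8.87 (ratio 0.69), and for Sult1a1, at 14.65 beside 14.32 to 14.42 (ratio 0.68). Floxed 2 was the lowest Floxed mouse for Ugt1a6b, at 15.86 beside 16.15 to 16.26 (ratio 0.737).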

How the results depend on the processing

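Of 705 values of 25 named genes (Ugt1a6a beyond the rule) under 28 alternatives, 668 kept their side of the threshold or moved by less than the spread between mice. Most of the named genes were not called in the main fit, and for these staying uncalled counted as kept. The stricter limma thresholds could add no call, so the 668 say little about stability. The 25 values that lost a call all belonged to Ugt3a1, Ces2e, Abcc4 and Phgdh, the named genes called in the main fit, and 8 values gained a call. The direction of a difference that had not passed was not read, and 39 values changed sign without passing. The median difference stayed between -0.05 and 0.05 for Ugt, -0.02 and 0.13 for Sult and 0.03 and 0.06 for Ces genes. Scaling to the 75th percentile gave 2 Ugt genes (Ugt3a1 and Ugt2b1) and 0 Ces genes, and turned the calls of the array from 58.9% higher in LKO mice to 78.1%. Without the filter on dim probes 2791 genes of the array were called, with 1 Sult gene (Sult2b1) and 2 Ces genes (Ces2e and Ces5a), and 7 members had an exact p below 0.05 in place of 2. After adjustment 0 genes of the array, 0 Ugt, 0 Ces and 0 genes of the partner lists passed in limma, and 1 gene of the array and none of the others in the methods' t-test, which at an unadjusted p had called 1236, with 1 Ugt and 1 Ces gene. An absolute difference of at least 1 left 88 genes of the array and 0 in the other counts. Slide as a fixed block, which rests on the 4 arrays of slide 2, left 317 genes of the array and 0 Ces genes, and its 1 Ugt gene was Ugt1a10 in place of Ugt3a1 and its 1 partner gene Nnmt in place of Abcc4. Slide as a random block called 1 Sult gene, Sult1c2. Leaving out 1 mouse at a time gave 1103 to 1838 genes of the array, 1 to 2 Ugt genes (Ugt1a6a was added without LKO 1), 0 to 1 Sult and 0 to 1 Ces genes, 1 to 2 genes of the partner lists (Nnmt was added without Floxed 2, Ugdh without LKO 2 and Aadac without LKO 3), and 2 to 3 members with an exact p below 0.05. Where an alternative moved a count, the cause was not tested unless it used fewer arrays or another threshold by construction.

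The replicate numbers were not treated as pairs. Mice of the same number have neighboring animal numbers in the labels. The groups were littermates, but the labels do not say which mice shared a litter. Deviations of mice of the same number correlated between -0.24 and 0.32. The replicate block gave 1428 genes of the array, 1 Ces gene and 2 Ugt genes (Ugt3a1 and Ugt1a6a, the latter at -0.34 with an unadjusted limma p of 0.0341 and lower in the LKO mouse of 5 of 6 numbers), and 2 of 6 Floxed mice correlated best with the LKO mouse of their own number. Members near background, among them 10 Sult genes, are limited by signal over background.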
